A study of Mus musculus with 34 samples.

Results

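The Zfp genes are mouse genes named Zfp, for zinc finger protein, followed by a number, and their H3K9me2 signal was compared with vitamin C withdrawn or supplied during gestation. Rows with such a name and no letter after the number were taken from the gene tables of gonadal soma and of primordial germ cells (PGCs), and Zfp57, Zfp42 and Zfp949 were left out by the same rule. This gave 332 of the 28706 genes in the soma table and 330 of the 27021 in the PGC table, and 330 Zfp genes were in both. Zfp511 and Zfp968 had a row in soma only. A further 31 soma genes with a letter after the number were kept apart.

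H3K9me2 marks repressed chromatin and was mapped by CUT&RUN, in which an antibody directs a nuclease to cut out the DNA around the mark. All embryos were female, E13.5, on C57BL/6 and Gulo-/-, and so unable to make vitamin C, which their mothers either received or had withdrawn for the first weeks of gestation. Gonads were sorted into Oct4GFP+ PGCs, the precursors of the gametes, and Oct4GFP- cells, here called soma, which pools all other cell types of the gonad. A change in the mix of these cell types and a change within a type cannot be told apart in such pools, and the mark over marker genes is no measure of expression, so the sort itself was not checked. The H3K9me2 libraries were 4 supplied and 3 withdrawn in soma and 5 supplied and 5 withdrawn in PGCs, each from 1000 cells, with equal numbers of IgG control libraries among the 34 libraries in all. Nothing in the labels says that libraries came from separate litters. The p-values thus measure a spread between libraries, pooled over all genes, which may in part be technical.

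Most Zfp proteins bind DNA through tandem C2H2 fingers. Many also carry a KRAB domain, which recruits TRIM28 and with it the H3K9 methyltransferase SETDB1 to the DNA that the fingers select, often a transposable element. The KRAB zinc finger genes lie largely in tandem clusters that grew by duplication, so neighbours can be close copies of each other, and the exons of their own finger arrays are a known site of H3K9 methylation. Other Zfp genes share only the name and encode transcription factors, RNA-binding proteins or ubiquitin and SUMO ligases.

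The deposited tables hold statistics per gene and no value for a single library. The spread is therefore given as the standard error (SE) of each log2 fold change, obtained from the moderated t, and neither library values nor the IgG background can be shown beside it. The tables name no antibody, and that they are of H3K9me2 is assumed, since the IgG groups have the same sizes. The log2 fold change in soma is withdrawn minus supplied, as read from the standard errors, and that in PGCs is assumed to have the same sign, which equal groups cannot settle. Depth per library is not given in the tables.

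Copies of Zfp genes were looked for in the DNA before their starts. RefSeq, on GRCm38.p6 (the mm10 assembly), had a promoter entry for 275 of the 332 genes. In 30 of them (10.9%) the 250 bases before the start held a copied stretch. This was an exact run of at least 40 bases, on either strand, shared with the promoter of another gene, of any name, elsewhere. The share was 9.46% over all 27025 genes with an entry, but some of these had no row in soma. Of the genes with both an entry and a row in soma, 1569 held such a run and 19059 did not. The 6 sequences below show this for Zfp534 and Zfp600, which led the soma comparison, for Zfp808 and Zfp935, which share a run with each other, and for Zfp966 and Zfp931 of a large family on chromosome 2. Capitals mark bases inside such shared runs.
Zfp534: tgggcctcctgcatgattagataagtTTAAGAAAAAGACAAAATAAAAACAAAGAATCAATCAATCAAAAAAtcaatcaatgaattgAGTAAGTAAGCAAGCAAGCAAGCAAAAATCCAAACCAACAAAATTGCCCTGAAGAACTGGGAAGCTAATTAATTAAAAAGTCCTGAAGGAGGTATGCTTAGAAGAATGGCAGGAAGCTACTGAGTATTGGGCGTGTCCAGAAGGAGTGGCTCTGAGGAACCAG
Zfp600: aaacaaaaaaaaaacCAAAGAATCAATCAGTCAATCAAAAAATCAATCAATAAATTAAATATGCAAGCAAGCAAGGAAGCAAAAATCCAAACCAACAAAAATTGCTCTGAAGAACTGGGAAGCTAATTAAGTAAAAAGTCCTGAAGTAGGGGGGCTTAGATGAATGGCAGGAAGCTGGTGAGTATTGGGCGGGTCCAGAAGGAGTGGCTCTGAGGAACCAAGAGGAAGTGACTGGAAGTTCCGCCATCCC
Zfp808: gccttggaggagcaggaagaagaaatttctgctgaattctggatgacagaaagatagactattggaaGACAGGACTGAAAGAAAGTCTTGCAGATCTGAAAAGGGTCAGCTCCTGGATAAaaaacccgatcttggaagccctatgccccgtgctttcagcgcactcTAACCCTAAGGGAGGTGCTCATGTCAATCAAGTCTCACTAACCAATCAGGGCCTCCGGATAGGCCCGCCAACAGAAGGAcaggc
Zfp935: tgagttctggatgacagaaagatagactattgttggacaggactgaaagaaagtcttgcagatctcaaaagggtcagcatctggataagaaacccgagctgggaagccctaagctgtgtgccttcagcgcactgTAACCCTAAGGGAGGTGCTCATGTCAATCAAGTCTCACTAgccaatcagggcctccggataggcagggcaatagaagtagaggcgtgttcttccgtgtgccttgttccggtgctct
Zfp966: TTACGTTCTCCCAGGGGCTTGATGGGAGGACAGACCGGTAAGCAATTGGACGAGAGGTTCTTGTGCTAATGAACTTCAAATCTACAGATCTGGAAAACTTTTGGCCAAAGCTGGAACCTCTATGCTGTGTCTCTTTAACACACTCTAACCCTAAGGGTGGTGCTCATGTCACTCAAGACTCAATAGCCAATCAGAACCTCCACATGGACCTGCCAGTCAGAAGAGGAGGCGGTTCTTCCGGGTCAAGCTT
Zfp931: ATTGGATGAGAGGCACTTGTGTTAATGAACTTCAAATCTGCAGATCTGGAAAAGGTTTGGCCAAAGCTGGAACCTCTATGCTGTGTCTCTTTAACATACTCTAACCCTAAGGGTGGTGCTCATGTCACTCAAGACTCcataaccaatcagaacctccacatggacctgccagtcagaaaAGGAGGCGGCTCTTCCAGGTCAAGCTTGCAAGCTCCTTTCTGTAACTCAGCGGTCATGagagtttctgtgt
The positions are chr4:147702632-147702881 on the minus strand for Zfp534 and chr4:146156577-146156826 on the plus strand for Zfp600. Zfp808 is at chr13:62129640-62129889 on the plus strand and Zfp935 at chr13:62466813-62467062 on the minus strand, and the annotated span of Zfp808 begins inside its window, at 62129857. Zfp966 is at chr2:175931101-175931350 and Zfp931 at chr2:178078426-178078675, both on the minus strand. In Zfp534, 209 of the 250 bases were in runs shared with 3 genes (Zfp982, Zfp987 and Zfp988), and in Zfp600 235 bases were shared with 6. Of these sharing genes, 0 of the 3 and 1 of the 6 had a row in soma. All 250 bases of Zfp966 were shared, and the promoter of Zfp967 matched it at 250 of 250 bases, so a read there fits both. Zfp966, Zfp967 and Zfp931 each shared runs with 26 genes. The sources used here do not say how reads that fit several places were counted, so the values of all these genes are uncertain. Over the 275 Zfp genes with an entry, the median was 12 CG dinucleotides in 250 bases against 6 for all genes, and 60.4% held at least 10 against 40.2%. For each gene the entry with the most CG was taken. The 6 sequences printed here held fewer, from 1 in Zfp534 to 6 in Zfp935.

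In soma the H3K9me2 signal was higher over most Zfp genes when vitamin C was withdrawn, with counts near those over genes at large. Of the 332 genes, 239 (72.0%) rose, 1 fell and 92 did not pass an adjusted p of 0.05 by limma per the authors' deposited table, in which 68.2% of all genes rose and 0.101% fell. Their median log2 fold change was 0.995, a 1.99-fold difference, with quartiles of 0.73 and 1.28, against a median of 1.04 (2.06-fold) and quartiles of 0.76 and 1.30 for all genes per the authors' deposited table. The sign was positive in 325 of the 332, beside 27784 of all 28706 genes, and 146 lay above the median gene. The sources used here do not give the scaling of the libraries, and its part in this shared shift was not tested. The values of the Zfp genes spread by an SD of 0.47 around their mean while their median SE was 0.34, and for all genes these were 0.51 and 0.36. The deposited p-values pool degrees of freedom over all genes. On the 5 residual degrees of freedom that 7 soma libraries leave, with the same standard errors, 93 Zfp genes (28.0%) rose and 0 fell. Of all genes, 32.1% rose on these degrees of freedom.

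The smallest p among the Zfp genes belonged to Zfp534 (chromosome 4, 147674225 to 147702631), a KRAB zinc finger gene, which rose by 2.04 ± 0.26 (log2, SE; adjusted p = 4.16e-11), a 4.10-fold difference, per the authors' deposited table. Also on chromosome 4, the KRAB gene Zfp600 (146156827 to 146198756) rose by 1.57 ± 0.24 (adjusted p = 2.03e-08), as listed per gene by the authors' deposited table. Zfp704, a transcription factor gene that spans 183 kb on chromosome 3, rose by 1.44 ± 0.23 and Zfp808, on chromosome 13, by 1.72 ± 0.30 per the authors' deposited table. Zfp459 and Zfp595, both in the chromosome 13 cluster, rose by 1.62 ± 0.29 and 1.67 ± 0.32 per the authors' deposited table. Zfp950 at 1.48 ± 0.28, Zfp934 at 1.44 ± 0.27 and Zfp277 at 1.24 ± 0.23 also rose per the authors' deposited table, and so did Zfp445, a KRAB protein that protects imprinted methylation, at 1.45 ± 0.28. Zfp459, Zfp595, Zfp934 and Zfp808 each overlap another annotated gene, as do Zfp600, Zfp704, Zfp950, Zfp277 and Zfp445, so part of their reads may belong to it.

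The highest fold change was that of Zfp296, a pluripotency-associated factor, at 2.31 ± 0.66, and the lowest was that of Zfp579 at -1.07 ± 0.66, which did not pass (adjusted p = 0.133), per the authors' deposited table. Both genes span under 4 kb and had low averages, 1.24 and 1.41 log2 CPM, with wide errors. Zfp931 followed Zfp296 at 2.07 ± 0.44 per the authors' deposited table. The most signal in all, summed over the gene, lay on the long genes Zfp536, Zfp407 and Zfp521, with averages of 8.76, 8.20 and 8.08 log2 CPM, and these rose by 0.76 ± 0.20, 0.97 ± 0.21 and 0.79 ± 0.21 per the authors' deposited table. Zfp genes had a median average of 3.66 log2 CPM against 3.40 for all genes.

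**Figure D1:**
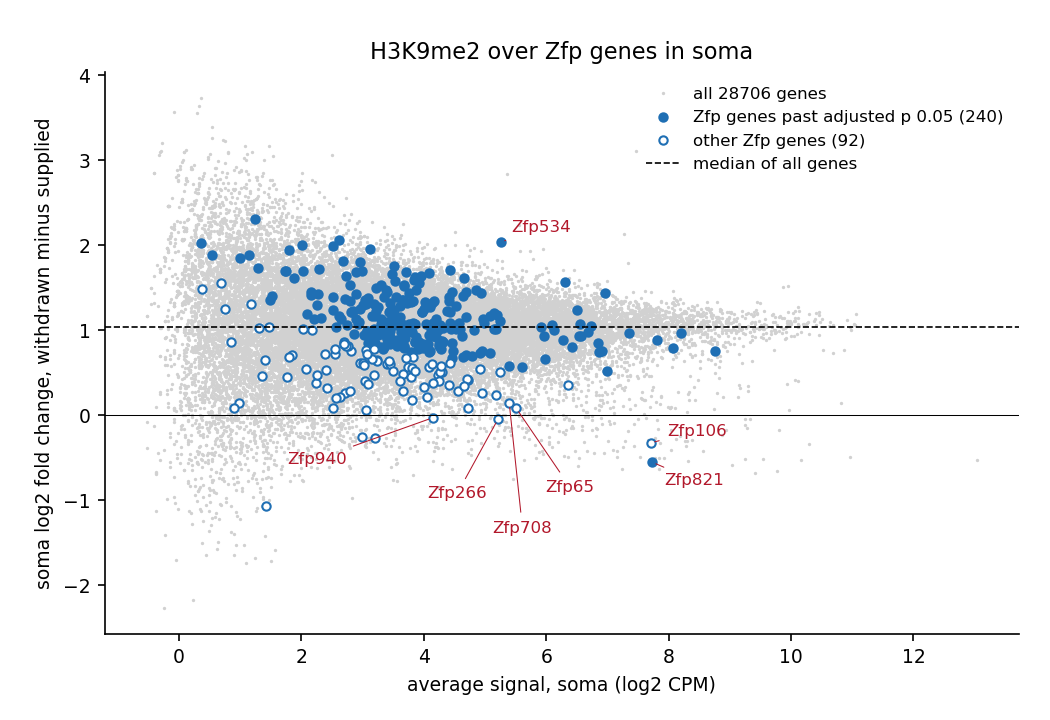
Log2 fold change of the H3K9me2 signal in soma (y axis, withdrawn minus supplied) against the average signal in log2 CPM (x axis) for each gene of the authors' deposited table, with Zfp genes in blue, filled where the adjusted p is under 0.05. The Zfp genes lie around the dashed median of all genes at 1.04, and the 7 named in red differed from that median.

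Because the median gene stood at 1.04, each gene was also tested against that value. At an adjusted p under 0.05, 1 Zfp gene stood above that median and 6 stood below it, beside 0.0488% of all genes above and 1.3% below (limma standard errors, two-sided). Zfp534 stood 1.00 above it (adjusted p = 0.0175). Zfp821 (chromosome 8, 109695252 to 109724932) stood at -1.59 from the median (adjusted p = 5.50e-10), and its own log2 fold change was -0.55 ± 0.22 (adjusted p = 0.020) per the authors' deposited table, the 1 Zfp gene that fell. Zfp106 (chromosome 2, 120506820 to 120563864), an RNA-binding protein needed by motor neurons, stood at -1.36 from the median (adjusted p = 2.65e-07), with a log2 fold change of -0.32 ± 0.22 that did not pass on its own (adjusted p = 0.172) per the authors' deposited table. The other 4 genes had log2 fold changes near 0 per the authors' deposited table, at -0.05 ± 0.27 for Zfp266, 0.08 ± 0.26 for Zfp65, 0.14 ± 0.26 for Zfp708 and -0.03 ± 0.31 for Zfp940. Their adjusted p relative to the median was 0.00587, 0.0187, 0.0419 and 0.0490. Zfp940 is named because the count is small and was chosen after its value was seen. At an unadjusted p under 0.05, 37 of 332 Zfp genes (11.1%) differed from the median, against 8.72% of all genes. With the 5 residual degrees of freedom none of the 7 passed, and at an adjusted p under 0.01 there were 3.

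Of the 6 Zfp genes below the median, Zfp821 and Zfp106 carried the most signal for their length. Zfp821 had 9.91 times the average signal per kb of the median gene in soma and Zfp106 5.07 times, the highest of all Zfp genes. Zfp65 had 2.64 times, Zfp708 2.04 times, Zfp266 1.95 times and Zfp940 1.15 times the signal per kb of the median gene. In PGCs the signal per kb of Zfp821 was 26.8 times and that of Zfp106 11.02 times that of the median gene. Of the 18 Zfp genes with more than 2-fold the signal per kb of the median gene, 4 rose (Zfp600, Zfp281, Zfp712 and Zfp451, chosen here because they are few), and the median log2 fold change of the 18 was 0.27 per the authors' deposited table. The 133 genes between the median density and 2-fold above it had a median of 0.86 with 90 risen, the 160 below it and down to 2-fold below a median of 1.08 with 131 risen, and the 20 lowest a median of 1.41 with 13 risen, per the authors' deposited table. Over all genes the medians of these bins ran the same way, from 0.48 at the highest density through 0.99 and 1.11 to 1.24 at the lowest. The share that rose in these bins, from the highest density to the lowest, was 22.2%, 67.7%, 81.9% and 65% of the Zfp genes, beside 21.1%, 68.9%, 76.0% and 61.7% of all genes. Spearman's rho between log2 fold change and density was -0.43 across 331 Zfp genes and -0.31 across 26517 genes, which share their libraries and are not independent. Zfp600, at 2.60 times the signal per kb of the median gene and a log2 fold change of 1.57, and Zfp534, at 1.86 times and 2.04, lay apart from this order. Where within these genes the signal lies, and whether it comes from repeats, was not tested. Signal per kb was taken over the whole annotated span. How reads in copied or overlapping stretches were counted is not given, and its part in low values was not tested.

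**Figure D2:**
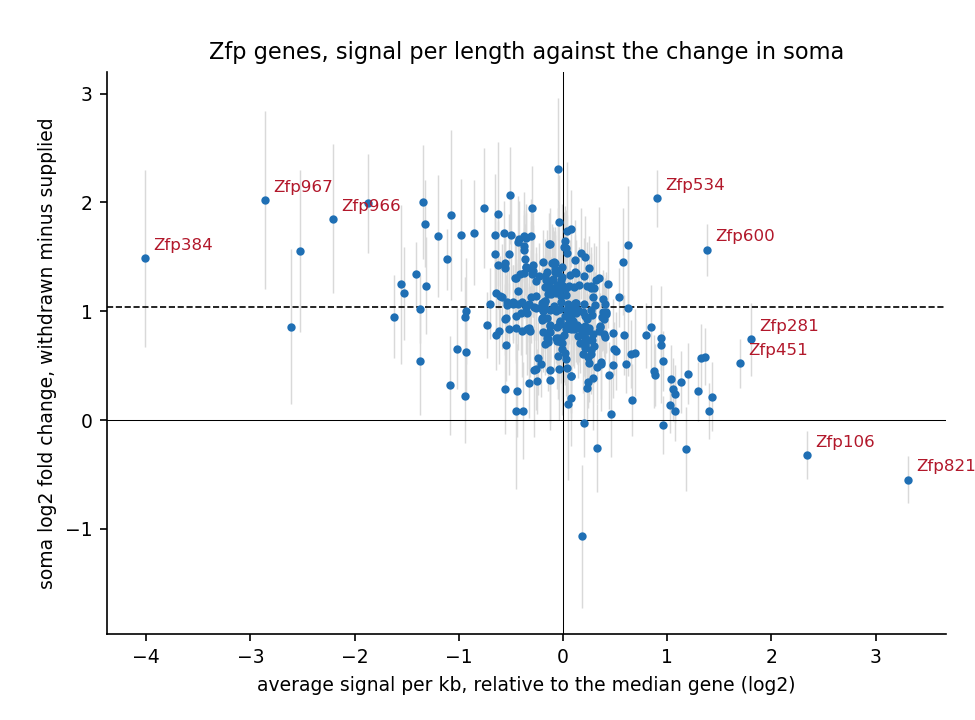
Log2 fold change in soma (y axis, bars are SE) against the average signal per kb relative to the median gene on a log2 scale (x axis) for 331 Zfp genes with a RefSeq span. The genes with the highest signal per kb, Zfp821 and Zfp106, lie lowest among the genes above 1 on the x axis, while Zfp534 and Zfp600 lie high at a raised density.

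The Zfp genes with described roles were read in 4 lists, chosen with earlier results known. The 11 KRAB proteins listed for having described DNA targets had a median of 1.45, and 9 of them rose, per the authors' deposited table, beside 68.2% of all genes. This list holds Zfp534, Zfp600, Zfp459 and Zfp445, also named above for the smallest p, so its median is not independent of those results. Zfp809, which silences murine leukaemia viruses through their primer binding site, rose by 1.09 ± 0.33, Zfp932, a repressor of endogenous retroviruses, by 1.45 ± 0.36, and Zfp568, which silences a placental Igf2 promoter, by 1.41 ± 0.29 per the authors' deposited table. Zfp819, linked to retroelement silencing in pluripotent cells, rose by 1.502 ± 0.37 and Zfp429 by 1.37 ± 0.42 per the authors' deposited table. Zfp708, which binds the RMER19B family of long terminal repeats, and Zfp92 on the X chromosome did not pass, at 0.14 ± 0.26 and 0.26 ± 0.27, per the authors' deposited table. These 2 genes had 2.04 and 2.46 times the signal per kb of the median gene. Among the 11, only Zfp534 above and Zfp708 below differed from the median gene at an adjusted p under 0.05.

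The 16 transcription and chromatin factors had a median of 0.84, and 11 (68.75%) rose per the authors' deposited table, beside 68.2% of all genes. Zfp644, a partner of the H3K9me2 methyltransferases G9a and GLP, rose by 1.03 ± 0.24 per the authors' deposited table. Zfp462, which directs G9a and GLP to enhancers in embryonic stem cells, rose by 0.75 ± 0.23 and Zfp143, an activator of housekeeping promoters, by 1.09 ± 0.30 per the authors' deposited table. Zfp281, a regulator of pluripotency exit, rose by 0.74 ± 0.33, and Zfp217, Zfp711, Zfp148, Zfp592, Zfp827 and Zfp335 rose by 0.70 to 1.39 per the authors' deposited table. Zfp541, a meiotic factor, at 0.51 ± 0.26, Zfp131 at 0.66 ± 0.37, Zfp219 at 0.47 ± 0.38, Zfp687 at 0.62 ± 0.39 and Zfp384 at 1.49 ± 0.81 did not pass per the authors' deposited table. None of the 16 passed against the median gene at an adjusted p under 0.05.

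Of 10 developmental factors 8 (80%) rose, beside 68.2% of all genes, with a median of 0.80, per the authors' deposited table. Zfp750 of that list had no row. The paralogues Zfp423, needed for hindbrain and fat development, and Zfp521 rose by 0.88 ± 0.21 and 0.79 ± 0.21, Zfp703 by 1.46 ± 0.49, Zfp365 by 0.76 ± 0.31, and Zfp608 and its paralogue Zfp609 by 0.80 ± 0.23 and 0.98 ± 0.23 per the authors' deposited table. Zfp503, a striatal and limb factor, stood at -0.26 ± 0.39 and Zfp516, a brown fat factor, at 0.35 ± 0.24, and neither passed per the authors' deposited table. Of 12 genes for RNA, ubiquitin and spindle proteins 6 (50%) rose, beside the same 68.2%, with a median of 0.77, per the authors' deposited table. Zfp91 had no row. Zfp638, a partner of the HUSH silencing complex, rose by 1.08 ± 0.23, Zfp318, a splicing regulator of IgD, by 1.09 ± 0.29, Zfp473, a histone pre-mRNA processing factor, by 1.39 ± 0.35 and Zfp451, a SUMO ligase, by 0.52 ± 0.23, with Zfp326 and Zfp830, both splicing factors, at 0.73 ± 0.27 and 1.61 ± 0.54, per the authors' deposited table. Zfp598, the sensor of collided ribosomes, at 0.81 ± 0.42, Zfp36, the mRNA decay factor tristetraprolin, at 1.31 ± 0.65, Zfp207, a spindle checkpoint protein, at 0.48 ± 0.31, and Zfp622 and Zfp706, at 0.28 ± 0.42 and 0.09 ± 0.45, did not pass per the authors' deposited table, nor did Zfp106 described above.

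The partners through which KRAB zinc finger proteins silence DNA were read from a separate list. Of 14 measured partners 12 (85.7%) rose, beside 68.2% of all genes, with a median of 0.93, per the authors' deposited table. Setdb1, the H3K9 methyltransferase, rose by 0.61 ± 0.29 (adjusted p = 0.0485), while Trim28, the corepressor itself, at 0.71 ± 0.52 and the HP1 gene Cbx1 at 0.09 ± 0.30 did not pass per the authors' deposited table. The other HP1 genes on the list, Cbx3 and Cbx5, rose by 1.70 ± 0.40 and 0.60 ± 0.27. Daxx had the highest value of the list, 1.97 ± 0.55. Other zinc finger families had medians of 0.77 for 34 Zbtb genes, 0.84 for 11 Zscan genes and 1.10 for 31 Zfp names with letters per the authors' deposited table. Of these 22 (64.7%), 6 (54.5%) and 24 (77.4%) rose, beside 68.2% of all genes.

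**Figure D3:**
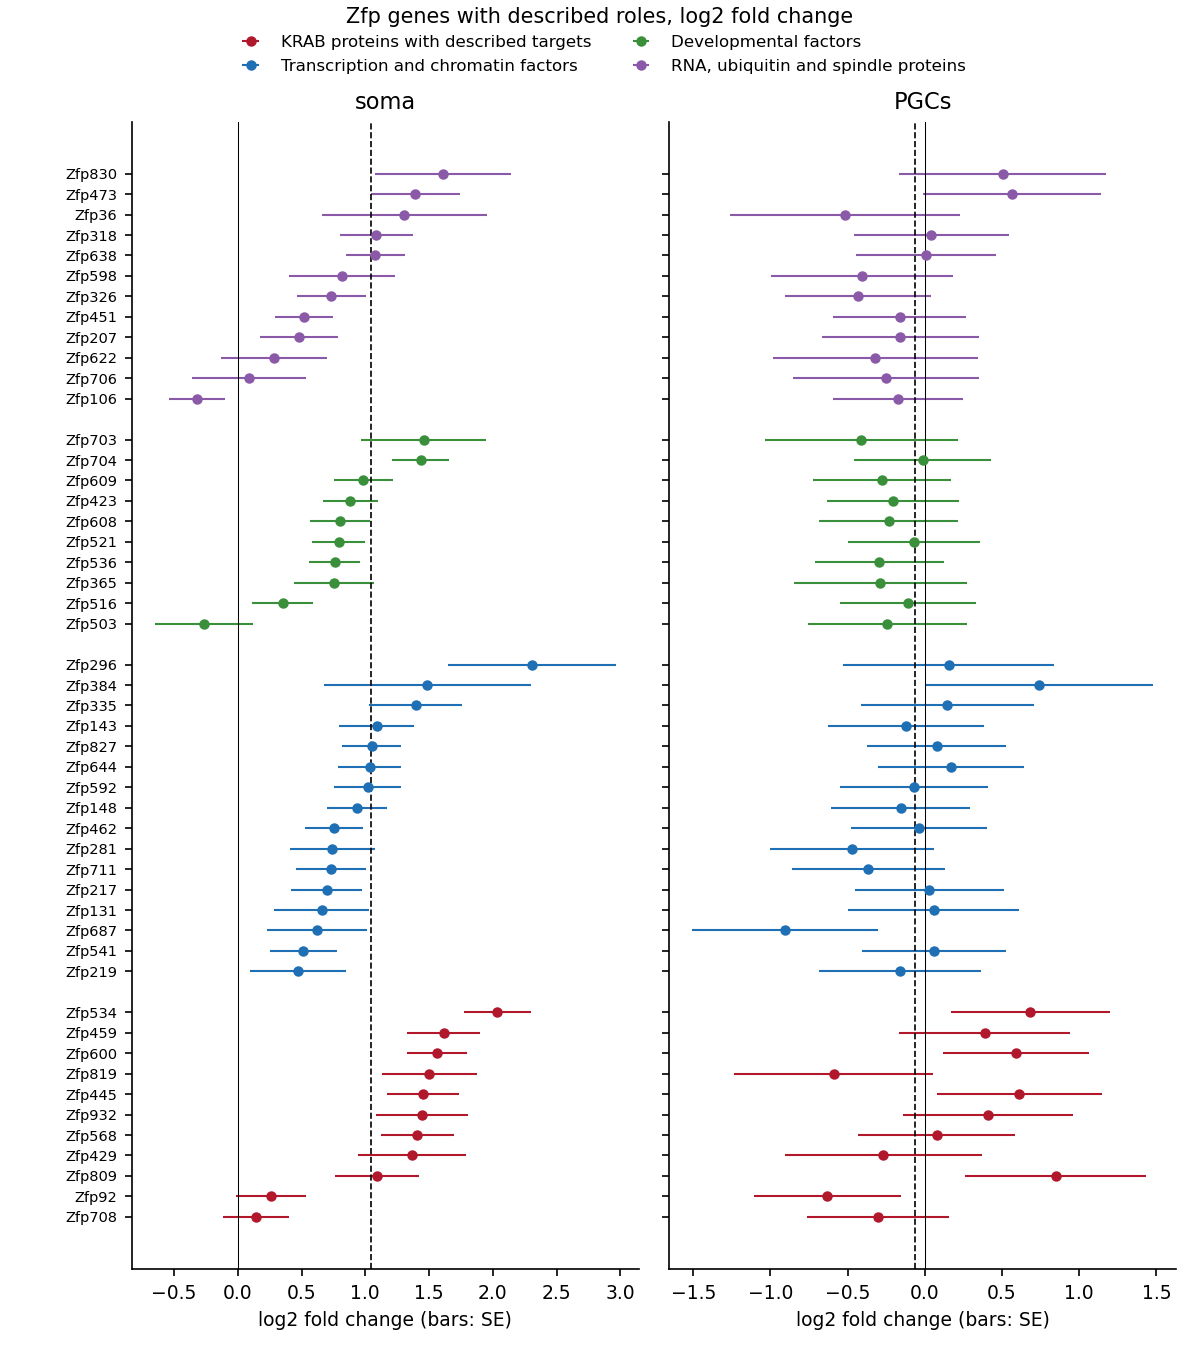
Log2 fold change with its SE for each measured Zfp gene of the 4 role lists, in soma (left) and PGCs (right), with the median of all genes dashed. In soma 9 of the 11 KRAB genes lie to the right of the dashed line at 1.04 and 8 of the 10 developmental genes to its left, while the PGC values lie around 0 with wider bars.

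Clusters of Zfp genes were defined as runs of at least 5 with gaps under 1 Mb. In all, 158 Zfp genes lay in 17 clusters, and 117 of them (74.1%) rose, with a median of 1.04, per the authors' deposited table. Outside lay 173, and 121 of them (69.9%) rose, with a median of 0.95. The share over all genes, to be set beside each cluster count below, was 68.2% per the authors' deposited table. The chromosome 13 cluster (67.04 to 67.79 Mb) held 17 genes, of which 13 rose, with a median of 1.21, per the authors' deposited table. Its genes ranged from 0.08 for Zfp65 to 1.72 ± 0.48 for Zfp456 per the authors' deposited table. The 15 genes on chromosome 7 from 29.77 to 30.17 Mb had a median of 0.82 with 10 risen, and they ranged from -0.03 for Zfp940 to 1.47 for Zfp27 per the authors' deposited table. The 11 genes on chromosome 17 from 32.77 to 33.63 Mb had a median of 1.28 with 10 risen, led by Zfp799 at 1.95 ± 0.39, per the authors' deposited table. The 19 genes at 21.01 to 23.60 Mb of the same chromosome had a median of 1.02 with 16 risen, among them Zfp820 at 1.99 ± 0.45, per the authors' deposited table. The highest median, 1.69, was that of 5 genes on chromosome 2 (174.60 to 176.68 Mb), 4 of which rose per the authors' deposited table, and the 15 other genes there had a median of 1.46 with all 15 risen. Of these 5, Zfp966, Zfp967, Zfp968 and Zfp973 belong to the family of shared promoters above, and had 0.138 to 0.436 times the signal per kb of the median gene. At the other end, 10 genes on chromosome 7 from 127.23 to 127.89 Mb had a median of 0.76 with 5 risen per the authors' deposited table. The 23 other genes there had a median of 1.28 with 15 risen. In the chromosome 13 cluster the other genes had a median of 1.33. On chromosome 7 from 29.77 to 30.17 Mb it was 0.27, over 3 genes. On chromosome 17 it was 1.14 from 32.77 to 33.63 Mb and 1.26 from 21.01 to 23.60 Mb. The other 11 clusters, of 5 to 14 genes each, had medians from 0.82 on chromosome 8 (69.21 to 69.77 Mb), where 4 of 6 rose, to 1.24 on chromosome 7 (41.63 to 43.62 Mb), where 6 of 7 rose, led by Zfp936 at 1.34 ± 0.30, per the authors' deposited table.

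**Figure D4:**
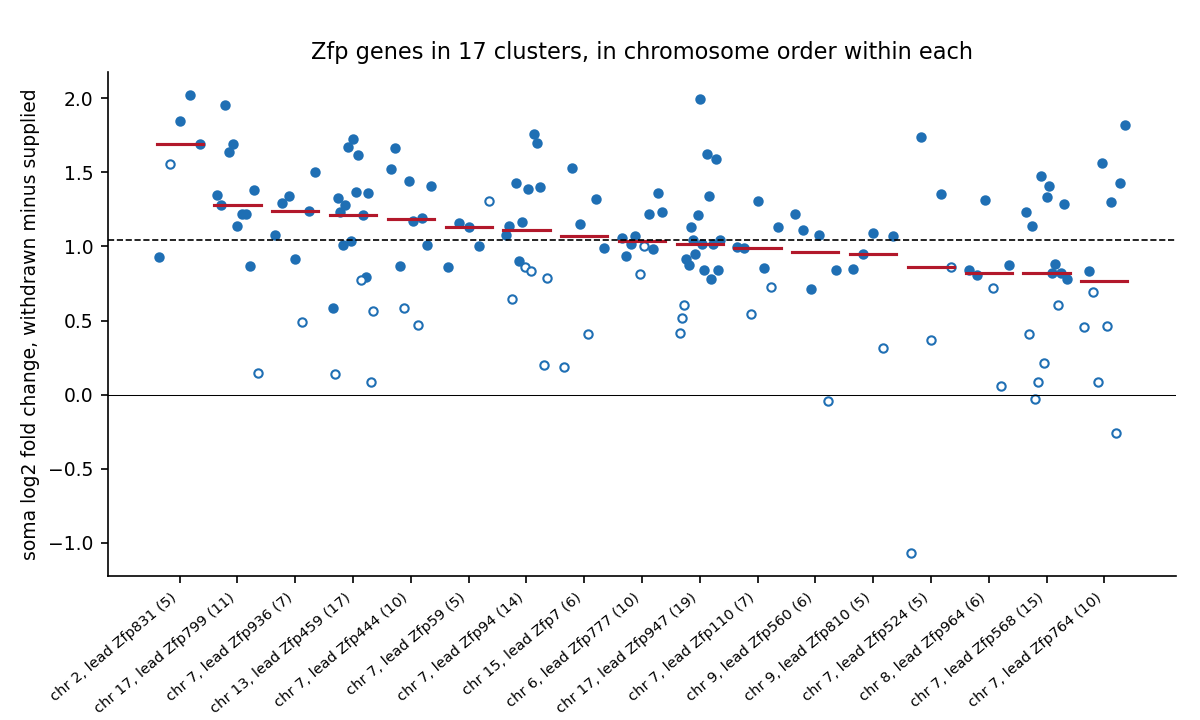
Soma log2 fold change of each Zfp gene in the 17 clusters, in chromosome order within a cluster, filled where the adjusted p is under 0.05, with the cluster median in red and that of all genes dashed. The medians of the clusters lie between 0.76 and 1.69.

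Zfp genes with and without a copied promoter were set side by side. Of the 30 Zfp genes with a shared run, 28 rose (Zfp747 and Zfp968 did not pass), with a median of 1.35, while 170 of the 245 without rose, with a median of 0.98, per the authors' deposited table. Over all genes 72.4% of the 1569 with a copy rose, with a median of 1.23, and 68.5% of the 19059 without, with a median of 1.03. For Zfp genes that overlap another RefSeq gene the median was 0.98 (78 of 108 rose, 72.2%) per the authors' deposited table. For those that overlap none it was 1.00 (160 of 223 rose, 71.7%), beside 68.2% of all genes that rose. By the number of CG in the promoter, the medians of Zfp genes were 1.08 for up to 4, 1.14 for 5 to 9, 0.99 for 10 to 19 and 0.95 for 20 or more per the authors' deposited table, beside 1.11, 1.07, 0.99 and 0.95 for all genes. Shared reads as a part of these values were not tested.

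In PGCs no Zfp gene passed an adjusted p of 0.05 by limma, as 0.0% of all 27021 genes did per the authors' deposited table. The median log2 fold change of the 330 Zfp genes was -0.11 against -0.06 for all genes, per the authors' deposited table. It was positive in 129 Zfp genes (39.1%), beside 42.7% of all genes. At an unadjusted p under 0.05, 2 of 330 (0.606%) passed against 0.984% of all genes, and these were Zfp770 at 1.54 ± 0.64 and Zfp867 at 1.28 ± 0.64 per the authors' deposited table. Zfp202 followed at 0.99 ± 0.61, and the negative values with the smallest p were those of Zfp677 at -0.98 ± 0.55, Zfp65 at -0.80 ± 0.46 and Zfp658 at -0.91 ± 0.57 per the authors' deposited table. The median SE was 0.56 in PGCs against 0.34 in soma. The 95% interval of Zfp534 in PGCs ran from -0.33 to 1.70, around 0.68 ± 0.52 per the authors' deposited table. That of Zfp821 ran from -0.97 to 0.66. Zfp821, Zfp536 and Zfp106 had the highest averages in PGCs, at 9.09, 9.02 and 8.75 log2 CPM. By role list, the PGC medians were 0.39 for the KRAB proteins, -0.01 for transcription and chromatin factors, -0.24 for developmental factors and -0.17 for RNA, ubiquitin and spindle proteins per the authors' deposited table, all with the sign assumed.

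The difference between soma and PGCs was tested gene by gene, since a call in soma and none in PGCs does not show that they differ. No Zfp gene passed an adjusted p of 0.05, as 0.0% of the 26721 shared genes did, and the lowest adjusted p was 0.105, using the standard errors of the limma fits. At an unadjusted p under 0.05, 105 of 330 Zfp genes passed against 34.5% of all genes. The difference was positive, higher in soma, in 320 of 330, with a median of 1.06 against 1.07 for all genes. The smallest p belonged to Zfp808 (1.89 ± 0.59), Zfp369 (2.26 ± 0.75), Zfp950 (1.70 ± 0.57), Zfp78 (1.95 ± 0.66) and Zfp704 (1.45 ± 0.50), as differences of log2 fold changes. With the PGC sign turned, 6 Zfp genes passed against 0.958% of all genes, namely Zfp534, Zfp600, Zfp202, Zfp931, Zfp770 and Zfp646, with adjusted p = 0.0132 for Zfp534 as the lowest and 0.0493 for Zfp646 as the highest. Across the 330 genes Spearman's rho between the soma and PGC log2 fold changes was 0.36, beside 0.19 across all 26721 genes, with the PGC sign as assumed. Genes share their libraries and are not independent. The part of reads shared between copied genes in these 2 values was not tested.

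**Figure D5:**
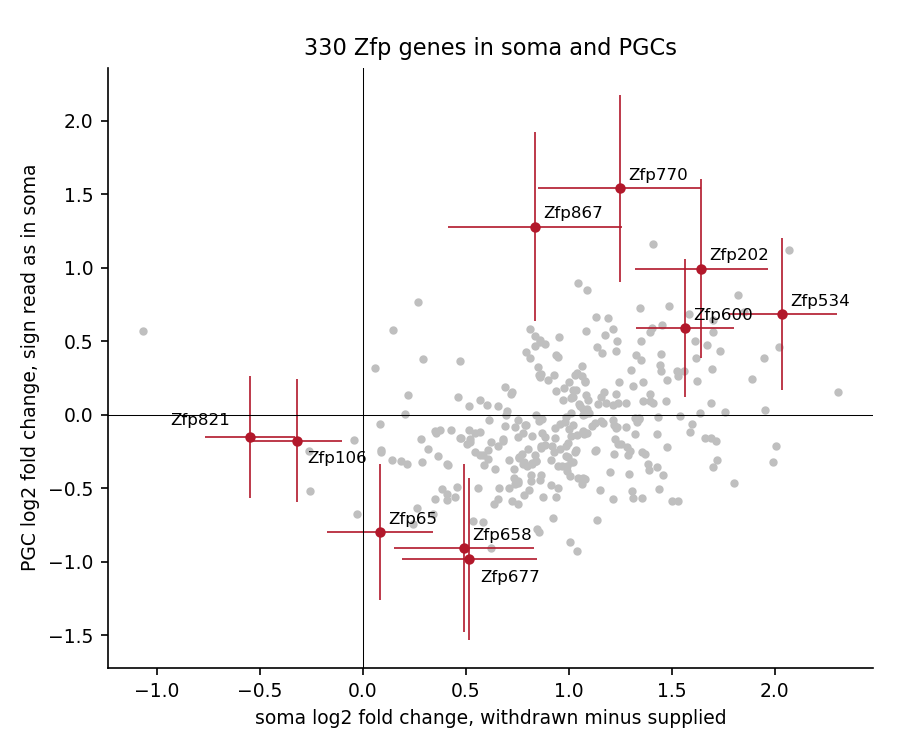
Log2 fold change in PGCs (y axis, sign read as in soma) against that in soma (x axis) for 330 Zfp genes, with SE bars for 10 named genes in red. Most genes lie to the right of 0 on the soma axis and around 0 on the PGC axis, with Zfp770 and Zfp867 highest in PGCs.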

How the data were processed

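CUT&RUN libraries of 1000 cells, amplified by 18 PCR cycles per the labels' protocols, had their reads trimmed by Trim Galore 0.4.0 and mapped by Bowtie2 2.2.5, and Picard and mm10 are also named, per the submitters' processing notes. The sources used here do not give the counting, filtering and scaling. The authors deposited tables of a voom and limma comparison, holding per the file headers a log2 fold change, an average as log2 CPM, a moderated t (a score), a p-value, an adjusted p-value and B, a natural log of odds. The standard error was taken as the log2 fold change divided by t. The deposited p-values rest on degrees of freedom pooled to 143530 for soma and 216168 for PGCs, against 5 and 8 residual ones, and were recomputed from t, with a Benjamini-Hochberg adjustment that matched. The soma direction was read from how standard errors of low averages depend on group size: the misfit was 0.293% for withdrawn minus supplied and 4.26% for the reverse.

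Tests relative to the median used the same standard errors after subtracting it, and the difference of soma and PGCs used Satterthwaite degrees of freedom, two-sided, adjusted over all genes. Signal per kb is the average log2 CPM minus log2 of the RefSeq gene span, set against the median gene. RefSeq matched 331 of 332 Zfp genes (Zfp607 did not match). The procedure was tested on simulated data. Named are the 10 Zfp genes with the smallest p higher in soma, up to 5 lower and up to 5 per direction relative to the median. Also named are 3 per direction in PGCs, 5 by the difference, and the 3 highest and 3 lowest fold changes in soma. The 3 highest averages in soma and in PGCs, the role lists and cluster leaders complete the list. Other genes named as extremes or examples of a cluster, bin or promoter group were chosen after their values were seen. The Zfp genes and all lists were chosen with earlier results of these data known. A split by KRAB box or finger number was not analysed here. Tables of repeat families and the IgG libraries were not used here. Python 3.11.15, numpy 2.4.6, pandas 2.3.3, scipy 1.17.1, statsmodels 0.14.6, matplotlib 3.10.9, R 4.3.3 and limma 3.58.1 were used.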

Additional observations from a re-analysis of the deposited data

How the results depend on the processing

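No paired analysis was possible because the tables hold no values per library, which also prevented leaving out libraries. The 240 changed Zfp genes in soma became 93 with residual degrees of freedom and 7 when centred on the median gene, and they were 165 at an adjusted p under 0.01, 162 when only genes at or above the median average were tested and 264 with lettered names. The 7 that differed from the median became 3 at an adjusted p under 0.01 and 0 with residual degrees of freedom, and were 8 when only those genes were tested and 7 with lettered names. PGCs gave 0 under every alternative run. The difference between soma and PGCs gave 0, except 6 with the PGC sign turned. Of 46 named genes that passed in soma, 7 no longer passed at an adjusted p under 0.01 and 15 with residual degrees of freedom. The pooled degrees of freedom thus carry the 1 fallen gene and each call relative to the median. Depth per library is not given in the tables, so its part in the wide errors of low averages was not tested.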
